A study of Mus musculus with 4 samples.

Results

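Keratins are the intermediate filament proteins of epithelial cells, and the 48 keratin genes on the array were described here among 18193 genes in the trachea of mouse embryos. The members were all genes whose platform symbol is Krt followed directly by a number, with no condition on their level, and each was read from its brightest probe set. They were separated into 5 simple keratins of single-layered epithelia, 4 basal keratins, 12 suprabasal and squamous keratins, 20 keratins of hair and its root sheath, and 7 others. The samples were 2 of trachea from an a1H knockout and 2 from wild type, all of strain background C57BL/6 and taken at embryonic day 16, each measured on 1 Affymetrix array. Here a1H is taken as the alpha-1H subunit of a T-type calcium channel, encoded by Cacna1h. The labels do not say which part of the gene was deleted, nor do they say whether a sample is 1 embryo or a pool. The p-values below therefore rest on a spread between arrays that may not be a spread between embryos.

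A keratin filament is built from pairs of a type I and a type II keratin, and each kind of epithelium uses its own pairs. Krt8 with Krt18 is the pair of simple epithelia, Krt5 with Krt14 marks basal cells of stratified and pseudostratified epithelia, Krt4 with Krt13 marks the upper layers of internal squamous epithelia such as the esophagus, and Krt1 with Krt10 marks the differentiating layers of the epidermis. In the airway, basal cells carry Krt5 and luminal cells carry Krt8, Krt18 and Krt19.

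Start-site sequences from RefSeq (GRCm38.p6) were listed for 32 of the 48 genes, at 33 start sites. The 150 bases before the start are shown for 1 keratin of each epithelial programme, since these 4 differed in how they varied among the arrays. Capitals mark matches on either strand to TATAAA, its overlapping variant ATAAAA, the AP-1 motif TGANTCA, the AP-2 motif GCCNNNGGC and the GC box GGGCGG.
Krt18 (simple), chr15:102028066-102028215, plus strand: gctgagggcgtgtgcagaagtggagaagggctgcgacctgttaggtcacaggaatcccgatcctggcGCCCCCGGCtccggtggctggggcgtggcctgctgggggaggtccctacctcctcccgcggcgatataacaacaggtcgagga
Krt5 (basal), chr15:101712906-101713055, minus strand: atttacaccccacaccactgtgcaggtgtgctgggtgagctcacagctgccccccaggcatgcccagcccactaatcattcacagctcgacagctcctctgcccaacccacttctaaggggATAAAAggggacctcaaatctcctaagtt
Krt13 (internal squamous), chr11:100121567-100121716, minus strand: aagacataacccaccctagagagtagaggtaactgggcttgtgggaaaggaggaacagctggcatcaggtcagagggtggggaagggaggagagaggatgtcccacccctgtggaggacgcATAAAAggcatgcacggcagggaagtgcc
Krt10 (epidermal), chr11:99389365-99389514, minus strand: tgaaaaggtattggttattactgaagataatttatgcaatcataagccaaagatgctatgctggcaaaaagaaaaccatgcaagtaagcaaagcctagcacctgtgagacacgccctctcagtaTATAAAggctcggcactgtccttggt
A TATAAA or ATAAAA stood 26 to 29 bases before the start in Krt5, Krt13 and Krt10, and neither was found in the Krt18 stretch. Over the same 150 bases, 23 of the 33 keratin start sites (69.7%) held TATAAA or ATAAAA, against 14.1% of all 32851 start sites listed. The GC box was present at 2 of the 33 keratin start sites (6.06%), against 28.6% of all start sites. TGANTCA was present at 1 of 33 (3.03%) against 4.24% of all, and GCCNNNGGC at 3 of 33 (9.09%) against 9.61%.

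The arrays differed in ways that touch the keratin values. The 99th percentile of signal was 16181 and 22614 on the a1H knockout arrays 1 and 2, and 15969 and 21064 on the wild-type arrays 1 and 2, so bright probe sets read higher on both replicate 2 arrays. The 9 hybridisation control probe sets, for bacterial and phage transcripts added to the sample, differed more, with geometric mean signals of 6258 and 18565 in the knockout and 6361 and 14756 in wild type. These controls moved with replicate number, as Krt1 and Krt10 did below, and their part in the keratin values was not tested. The array medians were 426 and 320 in the knockout and 459 and 416 in wild type. The targeted gene, Cacna1h, was not lower on the arrays labelled knockout, at 981 and 631 in the knockout against 630 and 538 in wild type. A probe set outside the deleted part checks nothing, so directions below rest on the labels. Markers of tracheal epithelium were above the array median in 6 of 7 genes on every array, with Nkx2-1, a transcription factor of trachea and lung, as the one below it, and all 4 cartilage and all 3 smooth muscle markers were above it. The 7 tracheal epithelium markers summed to 35287 and 37744 in the knockout (replicates 1 and 2) and 42874 and 58267 in wild type. All 7 were lower in the knockout, against 51.8% of all genes, with a median log2 difference of -0.40 and 0 called in the fit below. For 5 of the 7 the groups did not overlap, against 19.1% of all genes with the knockout as the lower group. Their part in the keratin values was not tested.

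Markers of other keratin-bearing tissues were uneven among the 4 samples, with no marker listed at exactly 0. The summed signal of 8 of 9 listed skin and hair markers was 1490 and 6715 in the knockout (replicates 1 and 2) against 1432 and 14753 in wild type. Both replicate 2 arrays were above both replicate 1 arrays for 3 of these 8 genes, by over 2-fold for 2 of them, Lor and Hrnr, and the 2 made up most of the sum on those arrays. Trophoblast markers of the placenta (4 of 6 measured) summed to 347 and 114307 in the knockout, against 369 and 592 in wild type. Salivary gland markers (4 of 6 measured) summed to 24147 and 8064 in the knockout, against 70.7 and 60501 in wild type. Thymic epithelial markers (7 of 7) summed to 21894 and 11613 in the knockout, against 4115 and 7518 in wild type, and thymocyte markers (6 of 7) to 26479 and 10614, against 4538 and 12599. Thyroid markers (4 of 5) summed to 21212 and 16270 in the knockout and 22941 and 30038 in wild type, and lung markers (5 of 5) to 4709 and 3852 in the knockout and 4786 and 8563 in wild type. In a bulk sample, fewer cells of a type and less RNA per cell cannot be told apart.

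**Figure D1:**
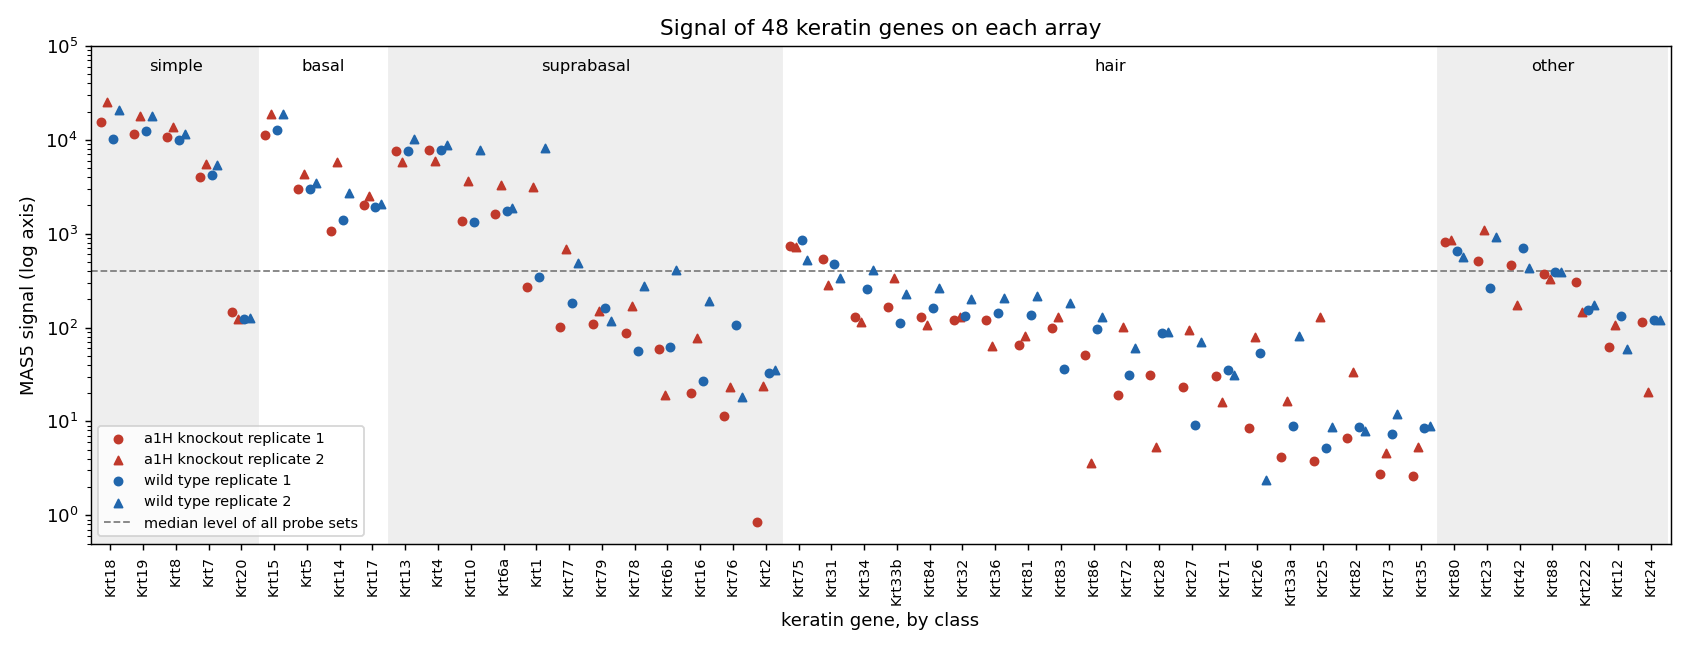
MAS5 signal (log axis) of the 48 keratin genes on each of the 4 arrays, grouped by class, with the a1H knockout in red, wild type in blue, circles for replicate 1 and triangles for replicate 2. The dashed line is the median level of all probe sets, a signal of 397; simple and basal keratins lie above it except Krt20, and hair keratins lie below it except Krt75, Krt31 on both replicate 1 arrays and Krt34 on wild-type replicate 2.

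By level, 17 of the 48 keratin genes had a mean log2 signal at or above the median of all probe sets, a signal of 397, against 64.3% of all genes. They were 4 of 5 simple, 4 of 4 basal, 5 of 12 suprabasal, 1 of 20 hair and 3 of 7 other keratins. On all 4 arrays, 14 keratins were above the array median. Signals of different probe sets depend on the probes, so they place a gene above or below this level and do not rank genes by amount. Where 2 signals are given for a genotype, replicate 1 comes before replicate 2.

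No keratin gene passed the test between a1H knockout and wild type. In the limma fit over 18193 genes, 0 of 48 keratins had a Benjamini-Hochberg adjusted p under 0.05, where 0 of all genes (0%) did, and the smallest adjusted p was 0.886 among keratins and among all genes. At an unadjusted p under 0.05 there were 3 of 48 keratins, all lower in the knockout, against 4.67% of all genes, of which 2.47% were lower. The 2 groups did not overlap for 15 keratins, against 35.8% of all genes, and the knockout was the lower group in 14 of them, against 19.1% of all genes. Of these 14, 10 were hair keratins whose signals were dim. By sign of the log2 difference alone, 12 of 20 hair keratins were lower in the knockout, as were 65.8% of all genes below the median level. The share of such dim genes without overlap was not counted. The median log2 difference, knockout minus wild type, was -0.10 over the 48 genes and -0.02 over all genes, and the keratin median changed sign with quantile normalisation (0.10) and with array centring (0.13). A negative log2 difference was found for 30 of 48 keratins, against 51.8% of all genes. The knockout was lower within both replicate numbers for 18 keratins, against 31% of all genes, and higher within both for 8, against 28.4%. The median SE of a keratin was 0.49 on the log2 scale, against 0.30 over all genes. No keratin was called in any fit with an array left out. Over all genes the fit without knockout replicate 1 called 136 and the fit without knockout replicate 2 called 3.

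The simple keratins other than Krt20 were bright, and the genotypes overlapped for all 5. Krt18, the type I keratin of simple epithelia, read 15427 and 25260.1 in the knockout and 10210 and 21014 in wild type, and its type II partner Krt8 read 10674 and 13857 in the knockout and 9926 and 11417 in wild type. For both genes the replicate 2 arrays were the higher ones, and the genotypes overlapped. The log2 difference was 0.43 (SE 0.40) for Krt18 and 0.19 (SE 0.22) for Krt8, knockout minus wild type. A dimmer Krt8 probe set read 9193 and 10820 in the knockout and 5672 and 6460 in wild type, a log2 difference of 0.72 without overlap, and another had 0.30, so the probe sets of Krt8 disagreed in size and not in sign.

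Krt19, a small keratin of ducts and luminal cells, read 11489 and 18150.1 in the knockout and 12346 and 17714 in wild type. Krt7, a type II keratin of glands and airway lining, read 4063 and 5590.3 in the knockout and 4257 and 5369 in wild type. Their log2 differences were -0.03 (SE 0.30) and 0.00 (SE 0.23), with 95% half-widths of 0.73 and 0.54 before adjustment. Krt20, a keratin of intestinal and urothelial surface cells, was below the array median on every array, at 146 and 123 in the knockout and 124 and 128 in wild type. The class median was 0.09, and it was 0.10 within replicate number 1 and 0.06 within replicate number 2.

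Basal keratins were all present above the median level, and 3 of 4 had a small positive difference. Krt5, the defining type II keratin of basal cells, read 2989 and 4350.3 in the knockout and 2982 and 3499 in wild type, a log2 difference of 0.16 (SE 0.23). Krt15, a type I keratin of basal and progenitor cells, read 11297 and 18918 in the knockout and 12577 and 18887 in wild type, so arrays of the same number nearly coincided and the log2 difference was -0.08 (SE 0.33). Krt17, a keratin of basal and appendage cells that is induced by injury, read 2032 and 2521 in the knockout and 1934 and 2080.0 in wild type, a log2 difference of 0.17 (SE 0.20).

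Krt14, the other usual type I partner of Krt5, varied far more than Krt5 did. It read 1058 and 5808 in the knockout and 1382 and 2744 in wild type, with knockout replicate 2 the highest array. The log2 difference was 0.35 (SE 0.74) in the fit, -0.38 for arrays numbered 1 and 1.08 for arrays numbered 2. A second Krt14 probe set had the same order, at 675 and 2971 in the knockout and 785 and 1421 in wild type, and another, dim one did not, being lowest on knockout replicate 2 and at most 121 on any array. Across the 4 arrays Krt14 spanned 2.44 on the log2 scale, Krt5 0.54 and Krt15 0.74. Without knockout replicate 2 the log2 difference of Krt14 was -0.87. Krt5, Krt15, Krt17, Krt7, Krt8, Krt18 and Krt19 were also highest on knockout replicate 2, Krt15 and Krt19 by little. The trophoblast markers stood out on the same array, and their part in the values of Krt14 and these other keratins was not tested.

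Krt13 and Krt4, the pair of internal squamous epithelium, were alike on the replicate 1 arrays and lowest on knockout replicate 2. Krt13 read 7606 and 5761 in the knockout and 7536 and 10177 in wild type. Krt4, its type II partner, read 7781 and 5928 in the knockout and 7757 and 8813 in wild type. The replicate 1 arrays differed by 0.01 for Krt13 and 0.00 for Krt4 on the log2 scale, and the replicate 2 arrays by -0.82 and -0.57. A second Krt4 probe set read 9406 and 3959 in the knockout and 9395 and 7661 in wild type. The 2 dim probe sets of Krt13 were also lowest on knockout replicate 2, at 18.2 and 25.3. In the fit the log2 differences were -0.40 (SE 0.24) for Krt13 and -0.28 (SE 0.21) for Krt4, with unadjusted p of 0.135 and 0.22 by limma and adjusted p of 0.886 for both. Without knockout replicate 2 they were -0.20 and -0.09, and without wild-type replicate 2 they were -0.19 and -0.19, so either array changed the Krt13 value by more than 1.5 times. Among all genes 33.9% were lowest on that array, as were 15 of the 48 keratins.

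How steady the ratio of this pair was depended on the probe set. The log2 ratio of Krt4 to Krt13 signal moved by 0.25 over the 4 arrays with the brightest Krt4 probe set and by 0.86 with the second one, which was nearly as bright. With the brightest probe sets it moved by 0.84 for Krt8 to Krt18, 0.51 for Krt5 to Krt15, 0.71 for Krt6a to Krt17, 1.90 for Krt5 to Krt14 and 2.30 for Krt1 to Krt10. Sprr3, Sprr1a, Ivl, Rptn and Tgm3 are squamous markers of mouth and esophagus. They summed to 1741 and 2316 in the knockout and 1683 and 3148 in wild type. Sprr1a, the only member of these 5 higher in the knockout, gave 1195 of the sum on knockout replicate 2. The median log2 difference of these 5 was 0.07 for arrays numbered 1 and -0.79 for arrays numbered 2. Krt13 had 0.01 and -0.82. Only Tgm3 of the 5, a transglutaminase, was lowest on knockout replicate 2. It read 355 and 129 in the knockout and 384 and 420.0 in wild type.

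**Figure D2:**
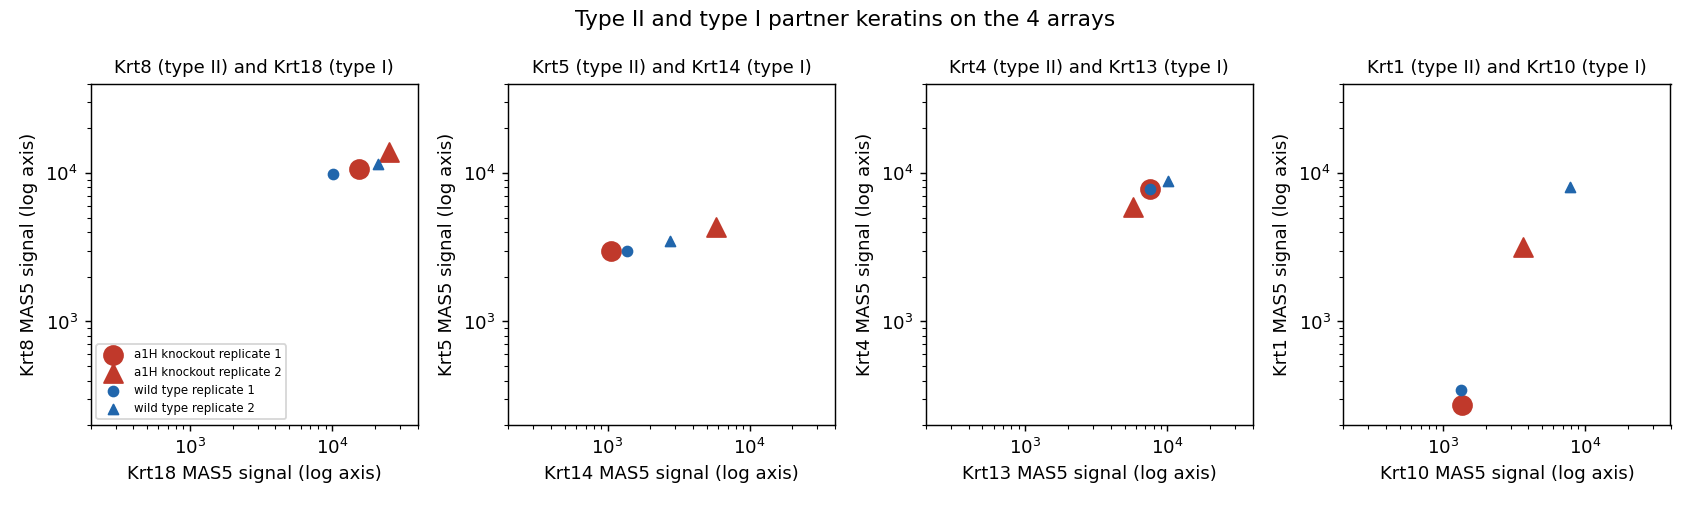
Signal of each type II keratin (vertical, log axis) against its type I partner (horizontal, log axis) on the 4 arrays, with the a1H knockout as large red and wild type as small blue symbols, circles for replicate 1 and triangles for replicate 2. In the Krt4 and Krt13 panel the replicate 1 arrays coincide and knockout replicate 2 is lowest; in the Krt1 and Krt10 panel both replicate 2 arrays lie far above both replicate 1 arrays.

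Epidermal keratins differed between arrays of the same genotype more than between genotypes. Krt1, the type II keratin of the spinous epidermis, read 273 and 3179.5 in the knockout and 345 and 8109.8 in wild type. Krt10, its type I partner, read 1359 and 3643 in the knockout and 1335 and 7824 in wild type. Both replicate 2 arrays were high and both replicate 1 arrays were low, and the genotypes overlapped. The ratio of replicate 2 to replicate 1, on signal plus 16, was 11.1 in the knockout and 22.5 in wild type for Krt1, and 2.66 and 5.80 for Krt10. The log2 difference between genotypes was -0.84 (SE 1.58) for Krt1 and -0.54 (SE 0.82) for Krt10, with adjusted p of 0.949 and 0.932 by limma. Leaving out single arrays moved the Krt1 difference between -3.08, without wild-type replicate 1, and 1.41, without wild-type replicate 2, and it was -2.57 without knockout replicate 2. The Krt10 difference moved between -1.81 and 0.73 with the same 2 wild-type arrays left out.

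Krt77 and Krt16, other keratins of the epidermis, were also higher on both replicate 2 arrays than on both replicate 1 arrays. Krt16 was below the array median on every array. Krt2, a further epidermal keratin, did not have this order, as knockout replicate 2 was below wild-type replicate 1. Krt77, a type II keratin of the epidermis, read 102 and 690.2 in the knockout and 184 and 489 in wild type, and Krt16, a type I keratin of stressed and palmoplantar epidermis, read 19.98 and 76.6 in the knockout and 26.7 and 194 in wild type. Both replicate 2 arrays were over 2-fold above both replicate 1 arrays for 5 of the 48 keratins, Krt1, Krt10, Krt77, Krt16 and the dim root sheath keratin Krt27, and for 0.632% of all genes. After quantile normalisation, which removes the difference in brightness range, it was 6 keratins, Krt1, Krt10, Krt77, Krt16, Krt78 and Krt14, and 0.835% of all genes. Without the 2-fold condition, 21 keratins were higher on both replicate 2 arrays, among them the 4 bright simple and the 4 basal genes, against 16.3% of all genes, and 25 keratins against 20% after quantile normalisation.

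Several genes of the cornified layer were high on the same arrays as Krt1. Lor, the main protein of the cornified envelope, read 351 and 3877 in the knockout and 265 and 6082 in wild type. Hrnr, hornerin, read 57.5 and 1783 in the knockout and 58.5 and 3183 in wild type. Of 22 measured members of the cornified envelope and squamous list, 8 passed the same 2-fold rule between replicate 2 and replicate 1 arrays. Among those 8 were Krtdap, a keratinocyte differentiation protein, at 764 and 9170.1 in the knockout and 930 and 5937 in wild type, and Sbsn, suprabasin, at 2337 and 12284 in the knockout and 2296 and 5483 in wild type. The desmosomal cadherins of the epidermis, Dsg1a and Dsc1, did so too, with 77.3 and 797 for Dsg1a in the knockout and 6.48 and 801 in wild type. Flg, filaggrin, of the granular layer, was high on 1 array only, at 15.1 and 2.84 in the knockout and 15.7 and 4001 in wild type. Lce1a1, Lce1m and Crct1, of the same list, were also far higher on wild-type replicate 2, at 1472, 1407 and 965. On the other arrays these 3 read at most 188. Tchh was nearly level, at 614 and 638 in the knockout and 649 and 705 in wild type. Krtdap, Sbsn, Dsg1a, Dsc1, Lce1a1, Lce1m, Crct1 and Tchh, and Krt77 above, were named after their values were seen. The part of skin in the trachea samples was not tested.

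**Figure D3:**
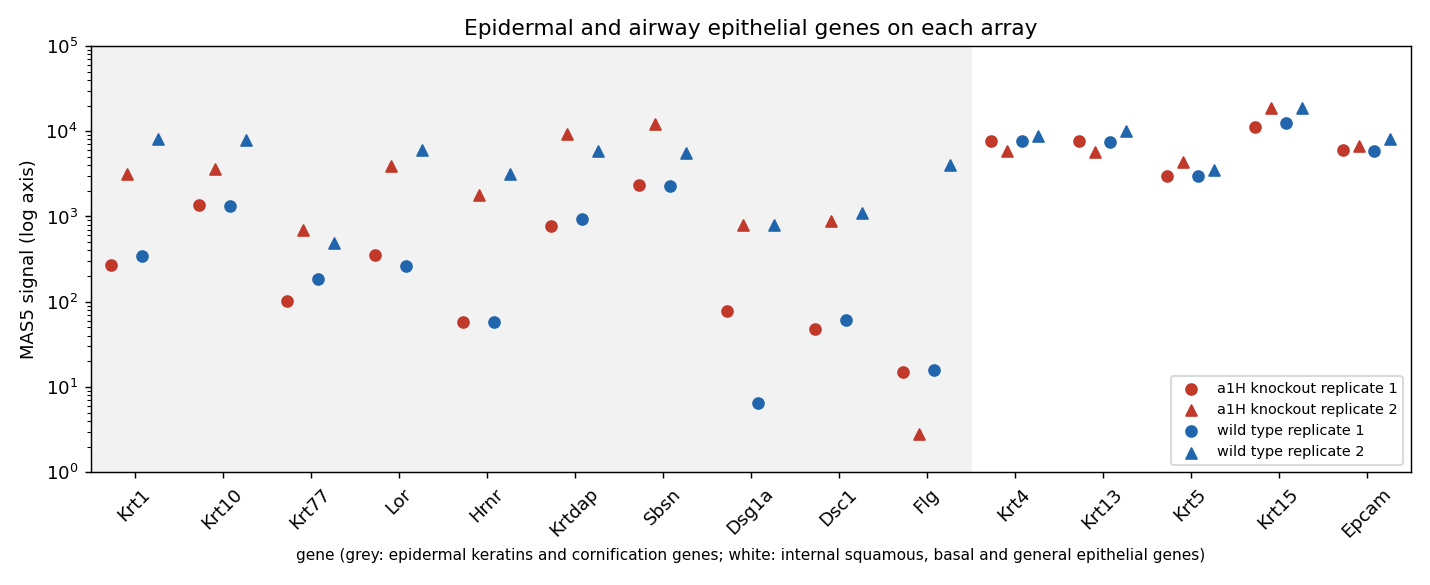
MAS5 signal (log axis) per array of 10 epidermal genes (grey area) and 5 genes of internal squamous, basal or general epithelium (white area), with the a1H knockout in red, wild type in blue, circles for replicate 1 and triangles for replicate 2. For Krt1, Krt10, Krt77, Lor, Hrnr, Krtdap, Sbsn, Dsg1a and Dsc1 both triangles lie over 2-fold above both circles. Flg is high on wild-type replicate 2 alone. Krt77, Krtdap, Sbsn, Dsg1a and Dsc1 were picked after their values were seen. Only 8 of 22 members of the cornified envelope and squamous list passed this 2-fold rule.

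The stress keratins Krt6a and Krt6b, close paralogs whose transcripts are alike in sequence, so that their probe sets may share signal, did not move together. Krt6a read 1639 and 3329 in the knockout and 1748 and 1887 in wild type, with knockout replicate 2 highest, as for Krt14. Its 2 other probe sets had the same highest array, at 2087 and 758. The log2 difference was 0.36 (SE 0.33), and -0.15 without knockout replicate 2. Krt6b was at 58.4 and 19.2 in the knockout and 62.5 and 408 in wild type, so the large log2 difference of -1.83 (SE 0.86, adjusted p = 0.886 by limma) came from wild-type replicate 2. Without that array it was -0.62.

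The remaining suprabasal keratins were dim. Krt2, a type II keratin of the upper epidermis, read 0.857 and 23.6 in the knockout and 33.0 and 35.1 in wild type, and Krt76, a keratin of the palate, read 11.4 and 23.2 in the knockout and 106 and 18.1 in wild type. Krt78 and Krt79 were below the array medians on every array, with a highest signal of 279 for Krt78. As a class, 11 of 12 suprabasal keratins had a negative log2 difference, against 51.8% of all genes and 65.8% of those below the median level. Their median was -0.47, which was -0.17 for arrays numbered 1 and -0.62 for arrays numbered 2. The median was 0.04 without knockout replicate 1 and 0.11 without wild-type replicate 2, and only 4 of the 12 were lower within both replicate numbers.

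Hair keratins were at or near the low end of the array. Krt75, a keratin of the companion layer of the follicle, was the only one of 20 with a mean level above the median, at 739 and 722 in the knockout and 862 and 523 in wild type. The other 19 had signals from 2.35 to 538. Krt34 read 131 and 113 in the knockout and 259 and 415 in wild type, Krt28 read 31.3 and 5.36 in the knockout and 87.0 and 88.6 in wild type, and Krt86 read 51.6 and 3.60 in the knockout and 96.1 and 129 in wild type. These 3 were the keratins with an unadjusted p under 0.05, at 0.021, 0.019 and 0.034 by limma, and all had an adjusted p of 0.886. Their log2 differences were -1.32 (SE 0.44), -1.71 (SE 0.55) and -1.81 (SE 0.68). Without knockout replicate 2 the difference was -1.13 for Krt28 and -0.91 for Krt86, and with a pseudocount of 64 in place of 16 it was -0.90 and -0.99. Krt25, of the inner root sheath, read 3.77 and 131 in the knockout and 5.23 and 8.67 in wild type.

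As a class, 12 of 20 hair keratins were lower, with a median of -0.33, which was 0.08 after quantile normalisation. Genes of keratin-associated proteins, which embed hair keratins in the shaft, numbered 38, and 34 of them were lower in the knockout. Of all genes 51.8% were lower, and of those below the median level 65.8%. The median log2 difference of the 38 was -0.95, with -0.28 for arrays numbered 1 and -1.01 for arrays numbered 2, and 0 were called. These genes were dim, with 0 above the array median on either replicate 1 array, 1 on knockout replicate 2 and 6 on wild-type replicate 2. They were highest on wild-type replicate 2 in 26 of 38, against 20.1% of all genes. Krtap6-2 read 52.5 and 26.7 in the knockout and 119 and 258 in wild type. Krtap4-1 read 14.1 and 4.18 in the knockout and 54.7 and 301 in wild type, and Krtap11-1 read 6.31 and 3.60 in the knockout and 40.0 and 97.2 in wild type. Their summed signal was 1640 and 1971 in the knockout and 2477 and 8614 in wild type.

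Among the 7 other keratins, Krt80 was the only keratin higher on both knockout arrays than on both wild-type arrays. Krt80, a type II keratin of differentiating epithelial cells, read 806 and 864 in the knockout and 650 and 565 in wild type, a log2 difference of 0.45 (SE 0.27, adjusted p = 0.886 by limma). The difference was 0.30 for arrays numbered 1 and 0.60 for arrays numbered 2, and 16.8% of all genes had the knockout above wild type without overlap. Krt23, a type I keratin, read 513 and 1090.4 in the knockout and 264 and 919 in wild type, with a log2 difference of 0.58 (SE 0.63). Krt42, a type I keratin close in sequence to Krt17, read 467 and 174 in the knockout and 705 and 435 in wild type on an x_at probe set, with a log2 difference of -0.91 (SE 0.53), which was -0.24 without knockout replicate 2 and -1.59 without knockout replicate 1. Krt24 read 116 and 20.7 in the knockout and 119 and 121 in wild type. Krt12, the cornea keratin, Krt88 and Krt222 had mean levels below the median, with log2 differences of -0.11, -0.16 and 0.36.

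**Figure D4:**
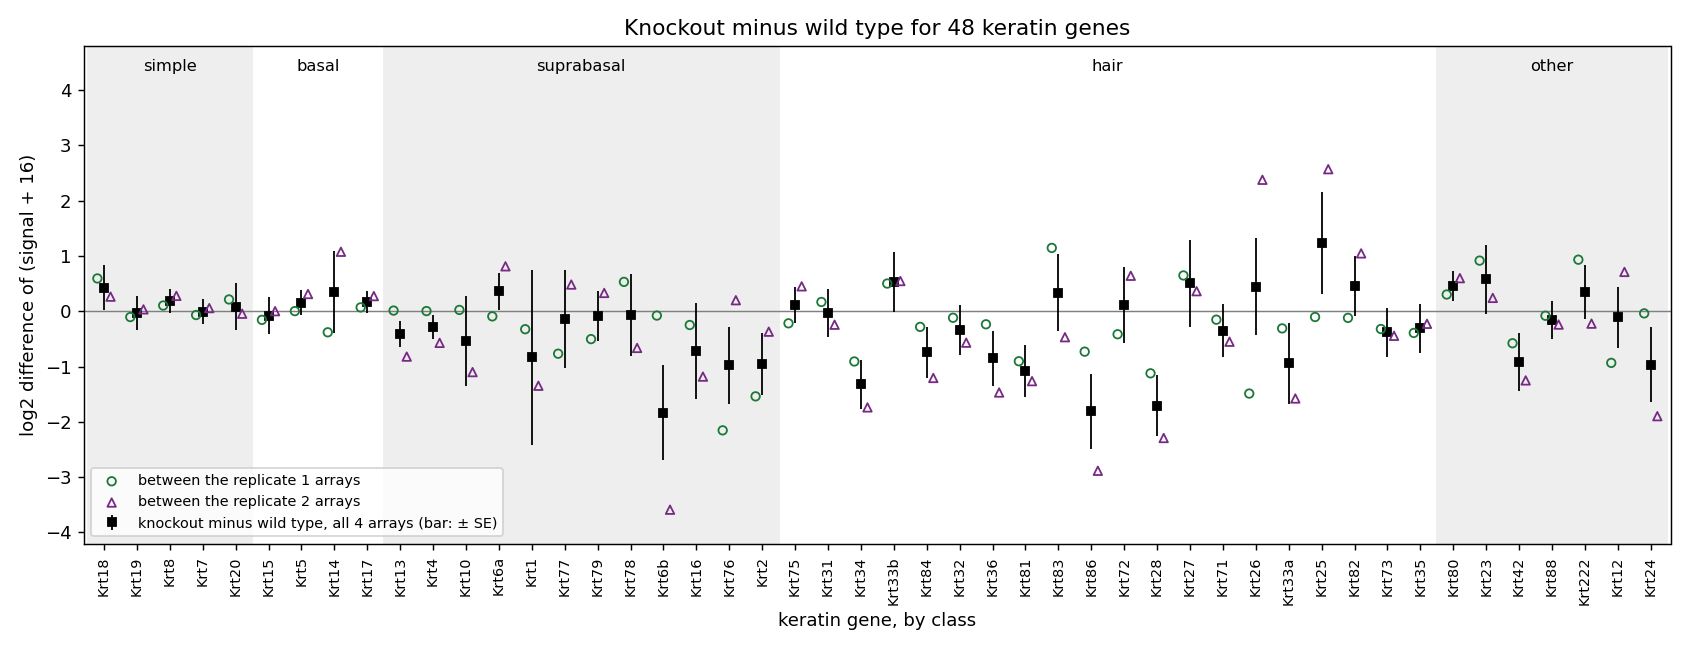
Log2 difference of signal plus 16, a1H knockout minus wild type, for each of the 48 keratin genes, with squares for the fit over all 4 arrays, bars for ± SE, green circles for the difference between the replicate 1 arrays and purple triangles for that between the replicate 2 arrays. In the fit, simple and basal keratins lie between -0.08 (Krt15) and 0.43 (Krt18), Krt14 with a wide SE of 0.74. Many suprabasal and hair keratins have differences that vary between replicate numbers.

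Genes that work with keratins were set beside them. Of all genes 51.8% were lower in the knockout, with 44.1% of those at or above the median level and 65.8% of those below it. Desmosome and plakin genes, which anchor keratin filaments, had 10 of 16 members higher and 6 lower in the knockout, 0 called and a median log2 difference of 0.02. Dsp, desmoplakin, read 13775 and 11075 in the knockout and 12363 and 12327 in wild type. Eppk1, epiplakin, a keratin-binding protein, read 4850 and 5138 in the knockout and 6617 and 6455 in wild type, a log2 difference of -0.39 (SE 0.17) without overlap. Dsc3 and Dsg2, desmosomal cadherins, had log2 differences of 0.58 and 0.29. In the cornified envelope and squamous list, 17 of 22 were lower, 0 were called and the median was -0.31, which was 0.03 for arrays numbered 1 and -0.81 for arrays numbered 2. Calml3, a calmodulin-like protein of epithelia, read 1934 and 990 in the knockout and 2520.0 and 2678 in wild type, and Klk7, a desquamation protease, had a log2 difference of -1.11 and Flg of -3.88.

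General epithelial genes were lower for 19 of 25 genes, against 51.8% of all genes and 44.1% of those at or above the median level. Their median was -0.16, with 0 called. Sox2, a transcription factor of the foregut and of basal cells, read 5179 and 4560 in the knockout and 8218 and 6587 in wild type, and its log2 difference of -0.60 (SE 0.20) had an adjusted p of 0.886 by limma. Trp63, the transcription factor of basal cells that acts upstream of Krt5 and Krt14, read 6313 and 8004 in the knockout and 7301 and 7598 in wild type. Cldn7, a tight junction protein, had a log2 difference of -0.52, and Elf5, an epithelial transcription factor, had 0.62. Other intermediate filament genes were higher in 11 of 16, with 0 called and a median of 0.15. Des, desmin of muscle, read 7085 and 7638 in the knockout and 4836 and 6621 in wild type, and Prph and Nefm, of neurons, had log2 differences of 0.56 and 0.81.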

How the data were processed

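The deposited values are MAS5 intensity values on a linear scale per the submitters' processing notes, 1 per probe set, made by the authors from biotin-labelled amplified cDNA per the labels' protocols. Its settings were not given in the sources used here. With 2% trimmed from either end, all 4 array means were 1500.0, as after scaling to a common target. No detection calls were used, and MAS5 values of dim probe sets are noisy. Of 45101 probe sets, 64 controls were left out, 34945 had exactly 1 gene, 932 several and 9160 none listed. Symbols were updated through a RefSeq table (GRCm38.p6). The 48 keratins had 61 probe sets, and 1 probe set assigned to Krt14 and Krt17 together was not used.

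Log2(signal + 16) was tested with limma 3.58.1 (R 4.3.3; lmFit, eBayes with intensity trend), genotype as the only term, over all 18193 genes with no level filter, and Benjamini-Hochberg adjustment at 0.05. Such differences understate those of dim genes. Values have n = 2 per group, and an exact permutation test of 2 against 2 cannot go below 0.333. Classes follow textbook sites of expression. Members, classes and gene lists were chosen with earlier results of these data known. Named keratins were a set list plus the 4 largest differences per class, and up to 3 genes per companion list with the smallest p. Among the genes given outside this rule were Krt12, Krt27, Krt31, Krt77, Krt78, Krt79, Krt88, Krt222 and Dsp. On simulated data of 18193 genes for this comparison, the recovered share was 19.2% at 2-fold, 72.4% at 4-fold and 93.6% at 8-fold. The changed genes were drawn from all genes, with noise independent between genes. Keratins had a median SE of 0.49 against 0.30 over all genes, so these shares do not hold for keratins. Figures used matplotlib 3.10.9 in Python 3.11.15.

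Alternatives were pseudocounts of 1 and 64, level filters, quantile normalisation, centring, no trend, array weights, other probe set choices, a replicate block and each array left out.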

Additional observations from a re-analysis of the deposited data

How the results depend on the processing

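No keratin was called under any of the 16 alternatives, 12 other settings and 4 that left out 1 array. Over all genes 0 were called in each of the 12 other settings, and leaving out 1 array gave 0 to 136. With the replicate block 0 genes were called, with 1636 at an unadjusted p under 0.05 against 849 without it, and 0 when the block was joined with quantile normalisation, a combination added after seeing the data. Deviations of same-numbered arrays from their group means correlated at 0.15 across 18193 genes, and the labels do not say that the numbers mark a batch. Centring arrays on their medians moved the median of all genes to 0.21 (log2, knockout minus wild type), and with it the simple keratin median to 0.32, Krt15 to 0.16, Krt7 to 0.23 and Krt19 to 0.20. The mean of all probe sets put Krt17 at -0.095, since a dim probe set entered. Class medians moved by less than the spread between arrays under the other alternatives. Of 27 named keratins, 12 kept their sign throughout, and 14 changed sign when 1 array was left out. Their log2 differences then ranged from -3.08 to 1.41 for Krt1, -1.81 to 0.73 for Krt10, -0.87 to 1.57 for Krt14, -0.45 to 0.30 for Krt15, -1.86 to 0.43 for Krt16 and -0.090 to 0.95 for Krt18. They ranged from -0.36 to 0.30 for Krt19, -0.025 to 0.20 for Krt20, -0.29 to 1.45 for Krt23, -0.21 to 2.68 for Krt25, -0.11 to 0.43 for Krt5, -0.15 to 0.87 for Krt6a, -0.23 to 0.22 for Krt7 and -0.23 to 0.47 for Krt75. Another 11 kept their sign but moved by over 1.5 times, from -0.62 to -0.19 for Krt13, 0.019 to 0.33 for Krt17, -1.57 to -0.34 for Krt2, -1.89 to -0.046 for Krt24, -2.28 to -1.13 for Krt28 and -0.48 to -0.087 for Krt4. They moved from -1.59 to -0.24 for Krt42, -3.05 to -0.62 for Krt6b, -1.90 to -0.056 for Krt76, 0.0039 to 0.38 for Krt8 and -2.70 to -0.91 for Krt86. Krt34 and Krt80 stayed within 1.5 times. Pseudocounts of 1 and 64 gave -2.85 and -0.99 for Krt86 and -2.63 and -0.90 for Krt28. The causes were not tested. With 2 arrays per group, differences of dim keratins have wide errors.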
